A study of Mus musculus with 6 samples.

Results

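Tight junction genes were examined in 6 mouse breast tumours, as 9 genes chosen by name with earlier results of these data known. The genes were the claudins Cldn1, Cldn3, Cldn4, Cldn5, Cldn7 and Cldn8, the occludin gene Ocln, F11r and Tjp1, of 19057 named genes on the array. In build GRCm38.p6, F11r lies on chromosome 1 (171437561 to 171464593), Cldn4 and Cldn3 on chromosome 5 (134945123 to 134946934 and 134986214 to 134987476), Tjp1 on chromosome 7 (65296165 to 65527850), Cldn7 on chromosome 11 (69964779 to 69967886) and Ocln on chromosome 13 (100496504 to 100552718). Chromosome 16 holds Cldn5 (18776847 to 18778262), Cldn1 (26356645 to 26371839) and Cldn8 (88560826 to 88563183). All 10 probes annotated to these symbols were taken, Cldn8 with 2 and each other gene with 1. The knockout group held 3 tumours labelled Cyp27b1 flox/flox;Cre+ and the control group 3 tumours labelled Cyp27b1 flox/flox;Cre-, all on the FVB background. The floxed alleles were thus shared by both groups, and only the knockout tumours carried Cre recombinase, so an effect of Cre cannot be told apart from that of the deletion. The study title places the ablation in mammary epithelium. The labels give neither the promoter of Cre, the age of the mice, the treatment nor which animal a tumour came from, so a p-value here reflects only how far these 6 samples spread, which may be technical. Cyp27b1 encodes the enzyme that makes active vitamin D, and the study asked what its loss in the mammary epithelium does to breast tumours.

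Tight junctions seal the gap between neighbouring epithelial or endothelial cells near their apical side. Claudins form the strands that set which ions and solutes pass, occludin and the junctional adhesion molecules join them in the membrane, and zonula occludens proteins tie the strands to actin. In the mammary gland the seal tightens at the onset of lactation, and in breast cancer low levels of Cldn3, Cldn4 and Cldn7 give the claudin-low group of tumours its name.

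The promoter windows of Cldn3, Cldn4, Cldn7 and F11r are shown because the results turn on these genes and because repressors of epithelial genes, among them Zeb1, Zeb2 and Snai1, are known to bind the E-box CAGGTG. The windows come from RefSeq in build GRCm38.p6 and run from 250 bases before to 50 bases after a start site. They are written 5′ to 3′ on the strand of the gene, and capitals mark CAGGTG or its reverse complement CACCTG. The Cldn3 window lies at chr5:134985964-134986263 on the plus strand, the Cldn4 window at chr5:134946885-134947184 on the minus strand and the F11r window at chr1:171437311-171437610 on the plus strand. Cldn7 has 2 windows on the plus strand, for an upstream start at chr11:69964529-69964828 and a downstream start at chr11:69965171-69965470.
Cldn3: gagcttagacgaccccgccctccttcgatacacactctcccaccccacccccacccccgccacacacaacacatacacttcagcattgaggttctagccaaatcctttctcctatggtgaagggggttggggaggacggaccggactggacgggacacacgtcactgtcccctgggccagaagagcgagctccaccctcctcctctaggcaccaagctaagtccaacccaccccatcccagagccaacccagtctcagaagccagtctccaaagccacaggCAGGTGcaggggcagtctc
Cldn4: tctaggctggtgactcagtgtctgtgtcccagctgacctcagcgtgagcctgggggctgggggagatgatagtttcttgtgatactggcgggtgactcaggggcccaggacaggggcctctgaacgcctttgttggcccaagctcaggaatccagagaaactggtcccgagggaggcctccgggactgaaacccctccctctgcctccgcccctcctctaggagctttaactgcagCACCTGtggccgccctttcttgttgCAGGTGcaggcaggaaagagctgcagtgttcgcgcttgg
Cldn7, upstream start: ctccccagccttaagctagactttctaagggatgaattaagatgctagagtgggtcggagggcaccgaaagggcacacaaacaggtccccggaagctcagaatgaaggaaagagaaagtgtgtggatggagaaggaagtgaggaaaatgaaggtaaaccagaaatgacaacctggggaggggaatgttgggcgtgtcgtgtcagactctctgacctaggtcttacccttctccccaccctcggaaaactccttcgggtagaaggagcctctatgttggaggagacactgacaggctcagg
Cldn7, downstream start: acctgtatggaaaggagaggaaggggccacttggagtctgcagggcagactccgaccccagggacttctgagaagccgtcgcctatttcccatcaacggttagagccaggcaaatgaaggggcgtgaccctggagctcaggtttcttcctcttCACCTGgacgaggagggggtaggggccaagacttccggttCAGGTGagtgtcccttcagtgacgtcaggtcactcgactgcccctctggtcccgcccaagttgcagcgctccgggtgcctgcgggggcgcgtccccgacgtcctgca
F11r: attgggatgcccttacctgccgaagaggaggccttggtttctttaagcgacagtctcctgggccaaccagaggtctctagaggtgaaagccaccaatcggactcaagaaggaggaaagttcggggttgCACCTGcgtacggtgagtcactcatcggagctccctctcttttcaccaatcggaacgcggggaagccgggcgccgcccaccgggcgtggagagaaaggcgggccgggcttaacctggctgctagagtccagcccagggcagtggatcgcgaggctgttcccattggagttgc

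Counted from the start site, the E-box of Cldn3 begins at position 32, those of Cldn4 at -14 and 12, those of the downstream Cldn7 start at -97 and -57, and that of F11r at -122. The upstream Cldn7 window holds none. Windows were found for 8 of the 9 genes, 10 windows in all, and 6 of these, from 5 genes, held the E-box on either strand, Ocln being the other gene. The 2 Ocln windows overlap and share 1 of these E-boxes. Of all 32851 promoter windows of the same length, 20.2% held it. The grainyhead motif AACCGGTT, which is its own reverse complement, was in 0 of the 10 windows and in 0.146% of all windows. A match is a run of letters and not a binding site, and the array measured no binding.

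Summed signals lay between 12300000 and 14800000 in knockout tumours, highest in knockout 1. In control tumours they lay between 10700000 and 13400000, lowest in control 3. A detection p-value below 0.05 counted as above background. Between 33.4% (control 3) and 36.1% (knockout 1) of the 45279 probes reached this on an array. Signals were background corrected, quantile normalized and put on a log2 scale. The lowest value above background lay between 4.90 and 5.0 on that scale. Cyp27b1 was not above background in any tumour, with a log2 value of 4.36 ± 0.07 in knockout and 4.34 ± 0.05 in control tumours (SD, n = 3 each), so its probe does not check the deletion. The knockout mean exceeded the control mean by 0.02 (p = 0.8 in an exact permutation test, two-sided, whose smallest possible p is 0.1 with 3 tumours a group). The groups separated along the leading principal component (56.6% of the variance). Along the next one (18.4%), knockout 1 scored 53.5, while knockout 2 scored -26.2 and knockout 3 scored -31.5.

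Cldn7 and F11r were called higher in the knockout tumours, but the calls depended on the settings. Of 15 other settings, Cldn7 lost its call under 8 and F11r under 12. Cldn3 was higher in every knockout tumour than in any control tumour without passing the test, and Cldn4 did not separate the groups. Of the 9 genes, 6 had a probe above background on at least 3 of the 6 arrays and were tested, and Cldn5, Cldn8 and Ocln did not. In limma, with adjustment over all 15885 kept probes and a call at an adjusted p below 0.05, 2 of the 6 tested probes rose and 0 fell. Over all kept probes, 9.2% were called, 4.14% higher and 5.06% lower. An unadjusted p below 0.05 was reached by 3 of the 6 probes and by 24.7% of all kept probes. Every knockout tumour lay above every control tumour for 3 of the 6 probes, where 16.4% of all kept probes did so and 30.2% had groups that did not overlap in either direction. The median log2 difference of the 6 probes was 1.24, against 0.05 over all 9354 named genes tested. A dim gene could pass the filter through its brighter group alone, so the 6 are not the whole family. Since the genes were chosen with earlier results of these data known, these shares describe them and test nothing about the family. In whole tumours, fewer cells of a type and less RNA per cell cannot be told apart.

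**Figure D1:**
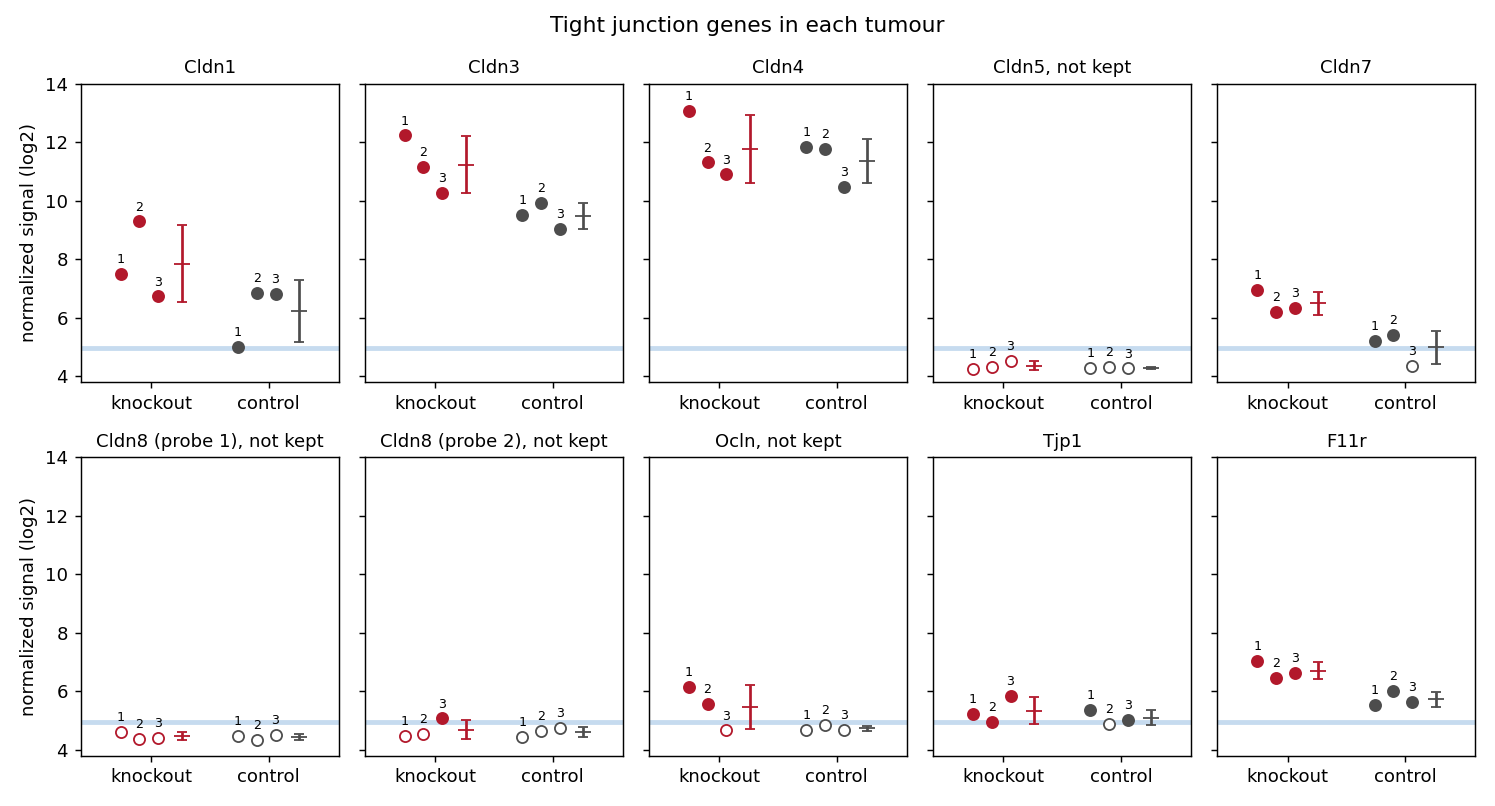
Normalized log2 signal of each probe (y axis) in knockout tumours (red, left) and control tumours (grey, right), with the tumour number above each point; bars give mean and SD, open circles are values not above background, and the blue band spans the lowest values above background of the 6 arrays (4.90 to 5.0). The groups do not overlap for Cldn3, Cldn7 and F11r, while Cldn5 and the first Cldn8 probe lie below the band in every tumour.

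Cldn7, an epithelial claudin that also sits along the lateral membrane, had log2 values of 6.94, 6.19 and 6.33 in knockout tumours 1, 2 and 3, against 5.22, 5.39 and 4.34 in control tumours 1, 2 and 3. All knockout tumours lay above all control tumours, and control 3 was not above background. The mean was 6.49 ± 0.40 in knockout and 4.98 ± 0.56 in control tumours (SD, n = 3 each), a log2 difference of 1.51 ± 0.33 (SE), or 2.84-fold (limma adjusted p = 0.031). Before normalization, the signals were 247, 156 and 173 in knockout tumours, against 123, 130 and 93.3 in control tumours, so the probe was dim throughout. With the authors' values the log2 difference of Cldn7 shrank to 0.40 (adjusted p = 0.082) and without background correction to 0.56 (adjusted p = 0.071), and with an offset of 50 it was 0.90. The call was lost without knockout 1 (0.056), knockout 2 (0.068), knockout 3 (0.059), control 1 (0.083) or control 3 (0.069), and without the filter on dim probes (0.11), and all its adjusted p lay between 0.026 and 0.11.

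Cldn3, a barrier-forming claudin, had log2 values of 12.23, 11.16 and 10.28 in knockout tumours 1, 2 and 3, against 9.50, 9.91 and 9.03 in control tumours 1, 2 and 3. The groups did not overlap, although knockout 3 lay only a little above control 2, and the knockout tumours spread over a wider range. The mean was 11.22 ± 0.98 in knockout and 9.48 ± 0.44 in control tumours (SD, n = 3 each), a log2 difference of 1.74 with a 95% confidence interval from 0.64 to 2.84 (limma adjusted p = 0.060). The probe was bright, with signals of 5929, 2225 and 1231 in knockout tumours, against 864, 1078 and 447 in control tumours. Its log2 difference stayed between 1.24 and 2.22 under the alternatives. Cldn3 passed the test without knockout 3 (adjusted p = 0.021) and with the replicate number as a block (adjusted p = 0.037), range over the alternatives 0.021 to 0.21.

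Cldn4, a close relative of Cldn3, had log2 values of 13.08, 11.31 and 10.90 in knockout tumours 1, 2 and 3, against 11.83, 11.77 and 10.48 in control tumours 1, 2 and 3. Knockout 1 was the brightest tumour, and knockout 2 and 3 lay between the control tumours. The mean was 11.76 ± 1.16 in knockout and 11.36 ± 0.76 in control tumours (SD, n = 3 each), with a log2 difference of 0.40 and a 95% confidence interval from -0.98 to 1.78 (limma adjusted p = 0.75). Without knockout 1 the log2 difference of Cldn4 was -0.26, and without control 3 it was -0.04, range of adjusted p over the alternatives 0.49 to 0.98.

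Cldn3 and Cldn4 are neighbours on chromosome 5, 39279 bases apart in GRCm38.p6, and can be compared by their changes within each array, since the brightness of a probe then cancels. The log2 value of Cldn3 minus that of Cldn4, set against its control mean, was 1.03, 1.73 and 1.26 in knockout tumours 1, 2 and 3, and -0.45, 0.02 and 0.43 in control tumours 1, 2 and 3. Cldn3 thus gained on Cldn4 by 1.34 log2 units in the knockout tumours, without overlap of the groups (exact two-sided permutation p = 0.1, the smallest that 3 against 3 tumours allow, and 0.5 after Benjamini-Hochberg adjustment over 15 pairs). Of the 15 pairs of tested genes, only this pair and Cldn7 with F11r (0.52) had groups that did not overlap. Randomly assigned group labels would separate any 1 pair this fully with a probability of 0.1, so a few of 15 pairs can do so without a difference. With these group sizes the test cannot pass 0.05 for any pair.

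Cldn1, a barrier claudin best known from the skin, had log2 values of 7.50, 9.29 and 6.72 in knockout tumours 1, 2 and 3, against 5.0, 6.83 and 6.82 in control tumours 1, 2 and 3. Knockout 2 was highest and control 1 lowest, and knockout 3 lay below control 2 and 3. The mean was 7.84 ± 1.32 in knockout and 6.22 ± 1.06 in control tumours (SD, n = 3 each), a log2 difference of 1.62 with a 95% confidence interval from -0.04 to 3.28 (limma adjusted p = 0.21). The log2 difference was 0.89 without knockout 2 and 1.01 without control 1, so single tumours of each group carried much of it. With the authors' values it was 0.76.

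F11r encodes junctional adhesion molecule A, an immunoglobulin-type adhesion protein. Its log2 values were 7.04, 6.45 and 6.64 in knockout tumours 1, 2 and 3, against 5.54, 6.02 and 5.64 in control tumours 1, 2 and 3. The groups did not overlap and each was tight, with 6.71 ± 0.30 in knockout and 5.73 ± 0.25 in control tumours (SD, n = 3 each). The log2 difference of 0.98 ± 0.24 (SE), or 1.97-fold, was called (limma adjusted p = 0.042). This call was close to the threshold. It was lost without knockout 1 (0.080), knockout 2 (0.073), knockout 3 (0.087), control 1 (0.15) or control 3 (0.12), and with 7 further settings, among them the authors' values (log2 difference 0.30, adjusted p = 0.091), no background correction (0.41, adjusted p = 0.071), the replicate number as a block (adjusted p = 0.080) and median scaling (adjusted p = 0.088). The adjusted p of F11r ranged from 0.034 to 0.15 over the alternatives.

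Ocln, which encodes the membrane protein occludin, was above background in knockout 1 and 2 and in no control tumour. Its log2 values were 6.16, 5.57 and 4.66 in knockout tumours 1, 2 and 3, against 4.69, 4.84 and 4.68 in control tumours 1, 2 and 3. Knockout 3 was as low as the control tumours, so the groups overlapped. The knockout mean of 5.46 lay 1.41-fold above a control level set at the lowest value above background, and the measured control mean was 4.74. Knockout 3 was itself not above background, so 1.41 is not a lower limit of the fold. This fold moves with knockout 1 and 2 alone, and when every probe was tested without a filter the difference of 0.73 did not pass (limma adjusted p = 0.51).

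Tjp1, the gene of the scaffold protein ZO-1, had log2 values of 5.22, 4.95 and 5.84 in knockout tumours 1, 2 and 3, against 5.38, 4.88 and 5.02 in control tumours 1, 2 and 3. Only knockout 3 stood above the others, and all values lay close to background. The log2 difference was 0.25 with a 95% confidence interval from -0.39 to 0.89 (limma adjusted p = 0.65), and it was -0.0026 without knockout 3.

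Cldn5, the main claudin of blood vessel endothelium, stayed within background in all 6 tumours, with signals of 88.3, 93.4 and 108 in knockout tumours, against 88.5, 91.5 and 86.8 in control tumours. Cldn8, a claudin of tight epithelia such as the distal nephron, was above background only with its second probe in knockout 3, at a log2 value of 5.08. Its first probe ran from 4.36 to 4.61 in knockout tumours and from 4.33 to 4.50 in control tumours. For both genes no fold is given, and the array says only that they were at or near background with these probes. Of 14 endothelial markers on the array, 9 were above background in at least 1 tumour and 5 (Cdh5, Tie1, Tek, Cd34 and Vwf) in none.

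The other components of the tight junction were read from a list of 53 genes, of which 47 were on the array and 31 had a kept probe. The kept probe with the highest mean stood for each gene. In limma 9 of the 31 rose and 1, Ildr2, fell, while 10.1% of all 9354 named genes tested were called, 4.47% higher and 5.63% lower. The median log2 difference was 0.33, against 0.05 over all named genes tested. This list, like those of markers and regulators below, was drawn up with earlier results of these data known. Its shares are therefore a description and not an independent test. The count of called genes was 6 with the authors' values, 5 without the filter, 3 without knockout 2, 5 without control 1 and 6 without control 3.

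**Figure D2:**
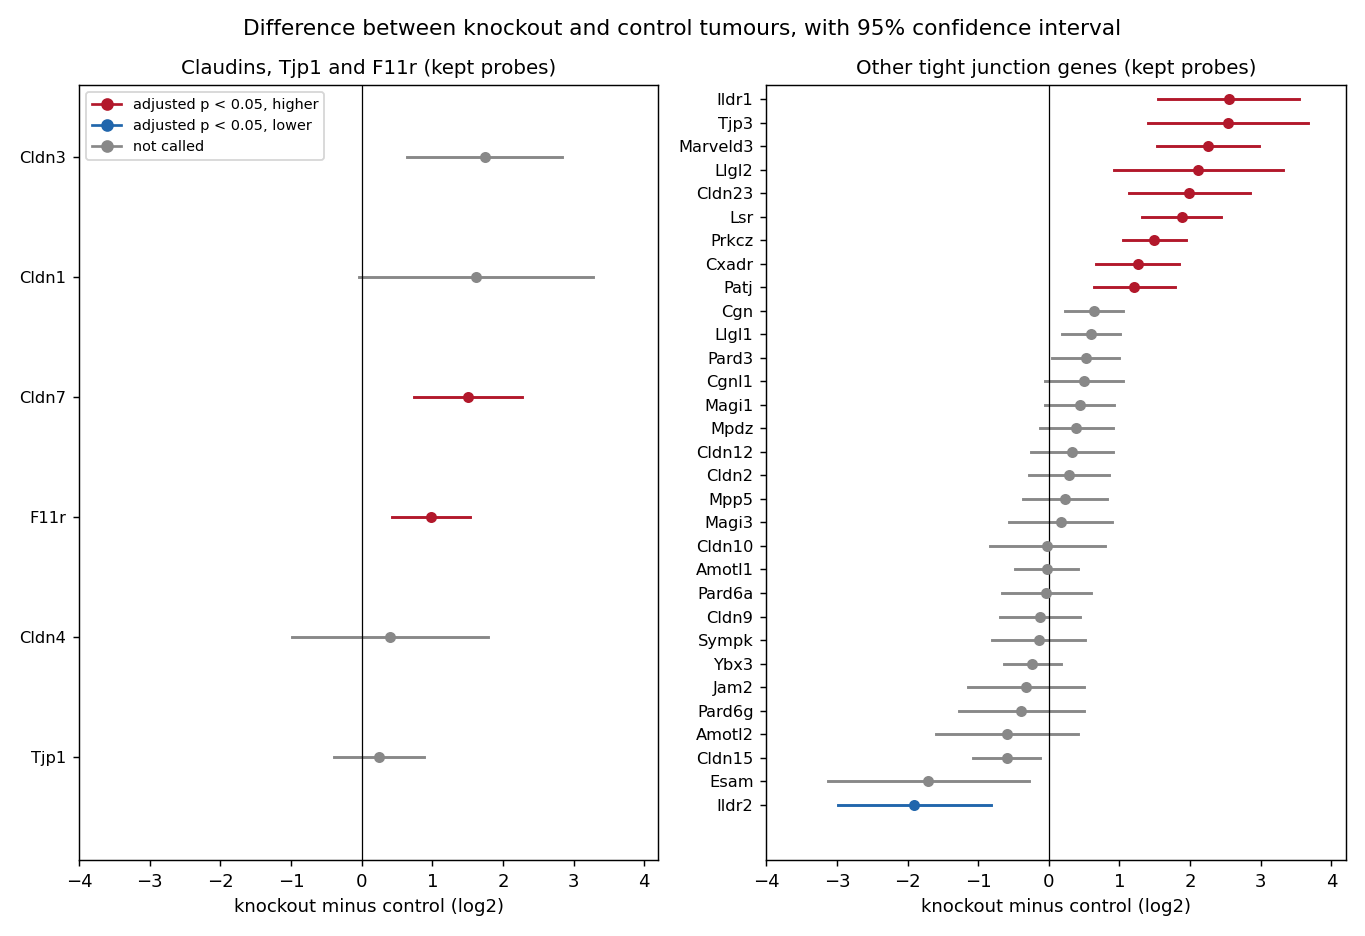
Log2 difference of knockout minus control tumours (x axis) with its 95% confidence interval from limma, for the kept probe of the 6 tested genes of the family (left) and of 31 other tight junction genes (right). Red marks called higher, blue called lower and grey not called; Cldn7 and F11r are red on the left, and on the right 9 genes led by Ildr1 and Tjp3 are red and Ildr2 is blue.

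Of 4 tested genes of the tricellular junction and of MARVEL proteins, 3 were called higher and 1 lower. Of all named genes tested, 4.47% were called higher and 5.63% lower. Ildr1, which encodes an angulin that marks the corner where cells meet, had log2 values of 9.28, 9.10 and 8.55 in knockout tumours, against 5.59, 7.35 and 6.35 in control tumours, and rose by 2.55 log2 units (limma adjusted p = 0.013). Lsr, another angulin, had 9.47, 9.28 and 9.0 in knockout tumours, against 7.21, 7.75 and 7.15 in control tumours, and rose by 1.88 log2 units (limma adjusted p = 0.0054). Marveld3, a relative of occludin, had 8.31, 8.43 and 7.69 in knockout tumours, against 6.02, 6.31 and 5.35 in control tumours, and rose by 2.25 log2 units (limma adjusted p = 0.0069). For Ildr1, Lsr and Marveld3 every knockout tumour lay above every control tumour, which held for 16.4% of all kept probes. A second kept probe of Lsr, near background, gave only 0.06 and was not called, while a second probe of Ildr1 (2.42) was called. A second probe of Marveld3, above background in all knockout tumours and no control tumour, was at least 1.63-fold higher. That probe passed the filter through the knockout group alone. The call of Ildr1 was lost without knockout 2 (0.052) and without the filter (0.065), range over the alternatives 0.0080 to 0.065.

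Ildr2, the remaining angulin, went the other way. It was above background in no knockout tumour, at 4.54, 4.57 and 4.59, and in all control tumours, at 7.64, 6.14 and 5.62. Ildr2 was therefore at least 2.94-fold lower in knockout tumours, by a mean of 4.57 in knockout against 6.47 in control tumours (limma adjusted p = 0.044). Its probe passed the filter through the control group alone, so a difference was built into its being tested. Its call was lost with the authors' values (log2 difference -0.52, adjusted p = 0.16), without background correction (0.14), with an offset of 50 (0.097) and without the filter (0.16). It was also lost without knockout 1 (0.071), knockout 2 (0.12), knockout 3 (0.094) or control 2 (0.073), and all its adjusted p lay between 0.033 and 0.16.

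Among scaffold and polarity genes, 2 of 11 and 2 of 7 rose and 0 fell, where 4.47% of all named genes tested rose and 5.63% fell. Tjp3, the gene of ZO-3, rose by 2.54 log2 units, with 6.62, 8.30 and 8.02 in knockout tumours, against 4.74, 5.88 and 4.72 in control tumours (limma adjusted p = 0.020). Of the control tumours only 1 was above background with this probe. The second Tjp3 probe exceeded background in all knockout tumours and no control tumour, a difference of at least 5.59-fold. That probe passed the filter through the knockout group alone, so it adds no separate support. Patj, a scaffold of the Crumbs complex, rose by 1.21 (adjusted p = 0.024), Prkcz, an atypical protein kinase C, by 1.49 (adjusted p = 0.0055) and Llgl2, a basolateral polarity protein, by 2.11 log2 units (adjusted p = 0.044). A second kept probe of Patj gave 0.84 and was not called (limma adjusted p = 0.074), while the other kept probes of Prkcz (1.99 and 1.72) were called. Tjp1, the relative of Tjp3, had given only 0.25. Calls were lost for Tjp3 with the authors' values (0.071), without background correction (0.053), without the filter (0.093) and without knockout 2 (0.071), knockout 3 (0.053), control 1 (0.086) or control 3 (0.070), and all its adjusted p lay between 0.0051 and 0.093. Llgl2 lost its call under 9 of 15 alternatives (adjusted p 0.013 to 0.17), among them without knockout 1 (0.082), knockout 2 (0.14), control 1 (0.15) or control 3 (0.13). Patj lost it under 7 of 15 (0.019 to 0.095), among them without knockout 2 (0.090), control 1 (0.095), control 2 (0.051) or control 3 (0.054). Prkcz, Lsr and Marveld3 kept their calls under all 15, although their log2 differences were smaller with the authors' values, at 0.58 for Prkcz, 1.24 for Lsr and 0.98 for Marveld3. With those values Ildr1 had 1.37, Tjp3 0.90 and Patj 0.41.

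Of the claudins outside the family named above, 14 were on the array and 6 had a kept probe. Among all named genes tested, 4.47% were called higher and 5.63% lower. Cldn23 was the only called gene of these 6, with 6.94, 7.61 and 6.67 in knockout tumours, against 4.64, 5.80 and 4.81 in control tumours, a rise of 1.99 log2 units (limma adjusted p = 0.017). Of the control tumours only 1 was above background for Cldn23. Cldn15 (-0.60, adjusted p = 0.12) was not called. Cxadr, the adhesion protein that serves as receptor of coxsackie and adenoviruses, rose by 1.26 log2 units (limma adjusted p = 0.023). Cgn, the gene of cingulin, and Llgl1 had log2 differences of 0.64 (adjusted p = 0.063) and 0.60 (adjusted p = 0.080). Cgn passed the test without the filter (0.033) and with trend and robust settings (0.034), and Llgl1 under 5 alternatives, among them the authors' values (0.018). The Cgn probe was above background in all knockout tumours and no control tumour, so it passed the filter through the knockout group alone. For Cgn the control group thus has only a bound, and the knockout mean lay at least 1.08-fold above it. Esam, an endothelial adhesion molecule that the list of endothelial markers also holds, had 5.27, 6.22 and 6.86 in knockout tumours, against 8.51, 8.51 and 6.46 in control tumours. The Esam groups overlapped at knockout 3, which lay above control 3, and the log2 difference of -1.71 was not called (limma adjusted p = 0.13), but it was without control 3 (-2.39, adjusted p = 0.036). The call of Cldn23 was lost with the authors' values (0.053), without the filter (0.073) and without knockout 2 (0.061), control 1 (0.074) or control 3 (0.062), its adjusted p spanning 0.0093 to 0.074 in all, and its log2 difference was 0.59 with the authors' values. With those values Esam had -0.79, Cgn 0.15 and Cldn15 -0.12. That of Cxadr was lost with median scaling (0.051), without the filter (0.065) and without knockout 2 (0.086), control 1 (0.096) or control 3 (0.075), spanning 0.014 to 0.096.

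Markers of several cell types differed between the same tumours. Over all named genes tested, 4.47% were called higher and 5.63% lower, with a median log2 difference of 0.05. Of 10 tested epithelial markers, 6 rose and 0 fell, with a median log2 difference of 1.43. The summed signal of these 10 markers ran from 11691 to 23845 in knockout tumours and from 4402 to 11378 in control tumours. All 11 epithelial markers on the array were above background in at least 1 tumour, but Epcam, a defining marker, only in knockout 2. Of the defining endothelial markers, Cdh5 was above background nowhere, and 1 probe of Pecam1 in knockout 1 and 2 alone, at 4.92 and 5.52. Cdh1, the gene of E-cadherin, had 8.58, 8.71 and 8.41 in knockout tumours, against 7.16, 7.94 and 7.01 in control tumours (log2 difference 1.20, limma adjusted p = 0.036), while another Cdh1 probe was above background nowhere. Of 8 fibroblast markers 5 fell and 0 rose, with summed signals from 1139 to 3271 in knockout tumours and from 8617 to 15645 in control tumours. The 4 tested endothelial markers, of 14 on the array, summed to between 555 and 657 in knockout tumours and to between 804 and 1496 in control tumours, with 1 called lower. The 6 tested basal and myoepithelial markers, 1 called higher and 2 lower, summed to between 18168 and 30330 in knockout tumours and to between 30747 and 40454 in control tumours. Their median log2 difference was 0.006, with 3 of the 6 positive and a range from -3.17 to 1.55. The sum of these basal markers thus does not describe all 6. The 2 tested macrophage markers summed to 4005, 9592 and 7820 in knockout tumours, against 658, 1361 and 2156 in control tumours. Their log2 differences went opposite ways, 1 higher and the other lower in knockout tumours, so this sum does not describe both. Neither marker was called. T and NK cell markers and adipocyte markers had 1 tested gene each, not called. The part of these cell type shifts in the changes of the tight junction genes was not tested. The count of called epithelial markers was 2 without knockout 2, 3 without control 1, 4 without control 3 and 2 without the filter. Cdh1 lost its call without knockout 1 (0.060), knockout 2 (0.12), knockout 3 (0.064), control 1 (0.13) or control 3 (0.10), with median scaling (0.058) and without the filter (0.099), and its log2 difference was 0.71 with the authors' values.

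**Figure D3:**
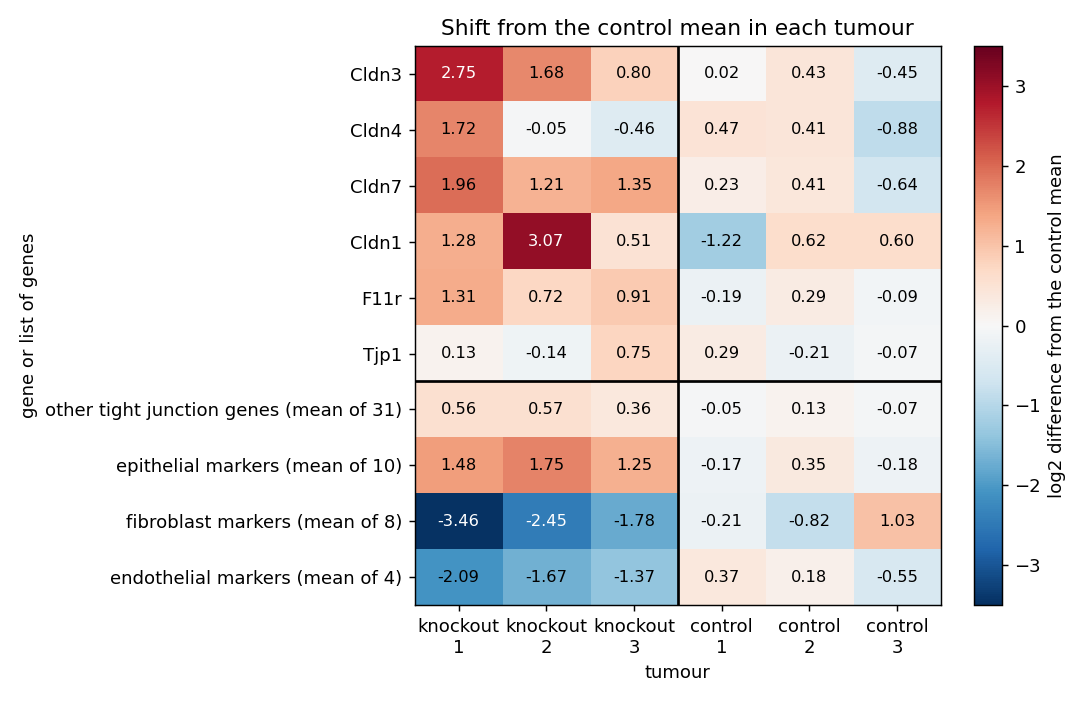
Log2 difference from the control mean in each tumour (columns, knockout left and control right) for the 6 tested genes of the family (upper rows) and for the mean of 4 gene lists (lower rows); red is above and blue below the control mean. Cldn3 runs from 2.75 in knockout 1 to 0.80 in knockout 3 while the mean of the epithelial markers is 1.48, 1.75 and 1.25, and Cldn4 is raised in knockout 1 alone among the knockout tumours (1.72).

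Within the knockout group some of the genes kept the same order of tumours and others did not. Relative to the control mean, Cldn3 lay 2.75, 1.68 and 0.80 log2 units higher in knockout tumours 1, 2 and 3, and Cldn7 lay 1.96, 1.21 and 1.35 higher. F11r, at 1.31, 0.72 and 0.91, had the order of Cldn7, and Cldn4, at 1.72, -0.05 and -0.46, that of Cldn3. The mean of the 10 epithelial markers lay 1.48, 1.75 and 1.25 higher in knockout tumours 1, 2 and 3, and that of the 8 fibroblast markers lay at -3.46, -2.45 and -1.78. Knockout 1, which had the highest Cldn3, Cldn4, Cldn7, F11r and Ocln, also had the lowest fibroblast markers. Cldn1 peaked in knockout 2 and Tjp1 in knockout 3. In the control group Cldn3, Cldn4 and Cldn7 were all lowest in control 3, where the fibroblast mean was highest (1.03). Before normalization, knockout 1 was also the brightest array (summed signal 14800000) and control 3 the dimmest (10700000). The part of array brightness in these orders was not tested.

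Regulators of junction genes changed in both directions. Of 14 tested, 5 rose and 4 fell, with 4.47% of named genes called higher and 5.63% lower. Grhl1, a grainyhead factor, had 7.14, 7.34 and 6.46 in knockout tumours, against 5.10, 5.61 and 4.80 in control tumours (log2 difference 1.81, limma adjusted p = 0.013). Elf3, an epithelial ETS factor, had 7.07, 7.47 and 7.42 in knockout tumours, against 5.65, 5.99 and 4.65 in control tumours (log2 difference 1.89, limma adjusted p = 0.016). Grhl2, which is known to activate claudin genes, and Esrp1, an epithelial splicing regulator, also rose (2.15 and 1.79). The repressors Zeb1 and Zeb2 fell (log2 differences -3.09 and -2.84), with Zeb2 at 4.95, 5.27 and 5.71 in knockout tumours, against 8.31, 8.05 and 8.09 in control tumours. Fibroblast markers fell in the same tumours (5 of 8 called lower, median log2 difference -2.62). The part of cell type shifts in the changes of the regulators was not tested. Another kept probe of Zeb2 gave -0.32, other kept probes of Elf3 gave 0.58 and 0.25, and another of Grhl1 gave 0.70, none of these called. Any link between these levels and the E-boxes printed above was not tested. With the authors' values the log2 differences were smaller, at 0.54 for Grhl1, 0.63 for Elf3, 1.13 for Grhl2, -1.49 for Zeb1 and -1.10 for Zeb2. The number of called regulators was 4 without knockout 2, 4 without control 1 and 5 without the filter. Grhl1 and Elf3 lost their calls without knockout 2 (0.052 and 0.067), without control 1 (0.060 and 0.058) and without the filter (0.052 and 0.069).

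The mean of Cldn3, Cldn4 and Cldn7, each centred on its own mean, was 1.53, 0.34 and -0.05 in knockout tumours 1, 2 and 3, against -0.37, -0.19 and -1.27 in control tumours 1, 2 and 3. Among 9114 other named genes, those nearest to this pattern, by the root mean square log2 difference over the 6 arrays, were Igsf9 (0.11), Kifc3 (0.13), Dusp16 (0.16), Shroom3 (0.18), Hook2 (0.19) and Ten1 (0.20). Shroom3 shapes the apical side of epithelial cells and Kifc3 is a motor protein found at cell junctions. Igsf9 had centred values of 1.34, 0.46 and 0.06 in knockout tumours, against -0.39, -0.22 and -1.25 in control tumours. The likeness is a description of 6 arrays, and none of these genes was called (limma adjusted p from 0.094 to 0.23).

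**Figure D4:**
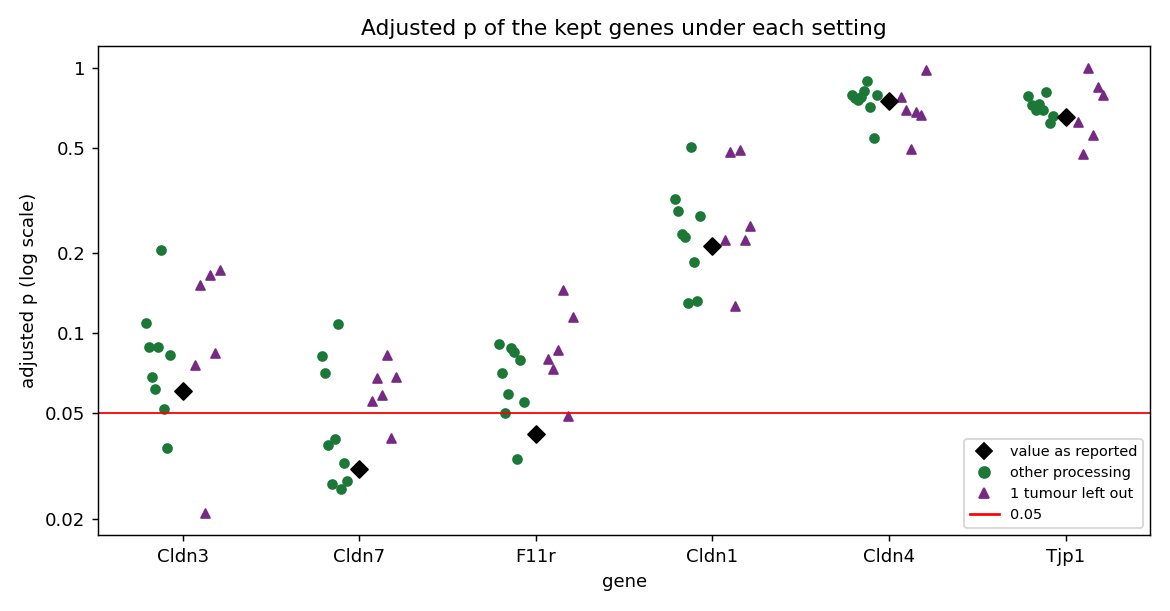
Adjusted p from limma (y axis, log scale) of the 6 tested genes (x axis), as reported (black diamonds), under other processing (green circles) and with 1 tumour left out (purple triangles); the red line is 0.05. Cldn7 and F11r start below the line and cross it under many settings, Cldn3 starts just above it at 0.060, and Cldn1, Cldn4 and Tjp1 stay above it throughout.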

How the data were processed

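RNA of 6 breast tumours, 3 knockout and 3 control, was hybridised to Illumina mouse bead arrays, 1 column per tumour. The authors deposited signal intensity per probe without normalization, and a detection p-value for each, per the file headers. Of the lines, 4 were broken (2 probes) and were left out, 1 of which held a stray entry in a detection column. The authors also deposited normalized log2 values, for which the submitters' processing notes name lumi 2.6.0; the sources used here do not give the steps. Each column kept the order of its array's signals, and medians lay between 7.40 and 7.41. They served as an alternative.

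The neqc function of limma 3.58.1 (R 4.3.3) inferred the background through the deposited detection p-values, added an offset of 16 and took log2 after quantile normalization. Of 45279 probes, 15885 were kept because their detection p fell below 0.05 in 3 or more tumours. Knockout minus control was tested with lmFit and eBayes, two-sided, with Benjamini-Hochberg adjustment over all kept probes, and this is the source of every adjusted p not named otherwise. Where a probe exceeded background in no tumour of a group, that group has only a bound: for each of its arrays the larger of 2 values was taken, the probe's own and the lowest one above background, and their mean was set against the mean of the brighter group. The number of arrays limits the precision. Levels of different probes were not compared.

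Symbols came from the platform annotation, with 34883 probes of 1 symbol, 18 of several and 10378 unnamed here. The genes and lists were chosen with earlier results of these data known. Genes named beyond the 9 were the called genes of the junction list with 4 uncalled ones of largest difference, the 6 regulators of smallest p, Cdh1, Epcam, Cdh5 and Pecam1 as defining markers, and the 6 genes nearest to the claudin pattern, clone and predicted names passed over. Other settings tried were cyclic loess, median scaling, the authors' values, leaving out background correction, 50 as offset, no filter, a detection p below 0.01 on all 3 arrays of at least 1 group, a replicate block, eBayes with trend and robust settings, and each tumour left out. For the regulators, the markers and the other named genes these alternatives were chosen after seeing the data.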

Additional observations from a re-analysis of the deposited data

How the results depend on the processing

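Over all kept probes, 1461 were called, against 723 without the filter and between 476 (without control 1) and 1564 (without knockout 1) when a tumour was left out. The 2 calls of Cldn7 and F11r, the same whether counted by probe or by gene, became 0 in limma with the authors' values, without background correction and without the filter, with 3 probes at an unadjusted p below 0.05 in each. The count was 1 with cyclic loess, median scaling or eBayes with trend and robust settings, and between 0 and 2 with a tumour left out. Other tight junction genes gave 10 calls, against 6 with the authors' values, 5 without the filter and 3 to 8 with a tumour left out. Differences that were not called changed sign for Cldn4 without knockout 1 (-0.26) or control 3 (-0.04) and for Tjp1 without knockout 3 (-0.0026), and with a tumour left out they ran up to 0.83 for Cldn4 and 0.44 for Tjp1. The cause was not tested, except that leaving out a tumour also leaves fewer samples. The log2 difference of Cyp27b1 stayed between 0.0005 and 0.061. With the replicate number as a block there were 1381 calls over all probes, 2 of Cldn3 and Cldn7 in the family and 9 among the other tight junction genes. Deviations of same-numbered tumours correlated across probes at 0.23, 0.09 and 0.06, each the highest value for that knockout tumour. Control 3, however, correlated better with knockout 2 (0.08). The labels give only a shared number, and whether the samples are paired was not tested. Median scaling moved the median difference of all kept probes to 0.14, against 0.05 as reported. Tjp1 did not pass the stricter filter. The probes of Cldn7, F11r, Ocln and Tjp1 were dim, and the size of the difference depended on the background correction for these and for many other named genes.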
